A study of Mus musculus with 38 samples.

Results

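The comparison described here is that of naive CD4 T cells from rescue mice with naive CD4 T cells from T1792tg mice, which differ by the loss of CD28 while both carry the miR-17∼92 transgene. It takes 7 of the 38 libraries in the series, 3 from rescue mice and 4 from T1792tg mice, chosen by the genotype and state given in their labels. Rescue mice are B6.CD28-/- and carry CD4cre together with Rosa26loxSTOPloxCAG-miR-17∼92Tg, an allele in which Cre removes a stop cassette so that the CAG promoter drives the microRNA cluster from the Rosa26 locus. T1792tg mice carry the same CD4cre and the same Rosa26 allele with intact Cd28. The lack of CD28 in rescue mice is germline and so holds in every cell, whereas the transgene depends on CD4cre, which is active in T-lineage cells. Each library came from the pooled lymph nodes and spleen of 1 mouse, and the naive cells were taken straight from a kit-based enrichment without culture. Beside them stand naive CD28ko mice (B6.CD28-/-, 4 libraries) and naive wt mice (4 libraries), which carry neither Cre nor the transgene, and rescue (3 libraries) and T1792tg (4 libraries) cells cultured for 24 h with interleukin-2 (50 U/ml) on plates that had been coated with antibodies to CD3 (0.5 µg/ml) and CD28 (0.2 µg/ml). No age is given for the mice.

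CD28 gives naive T cells their main costimulatory signal: it binds CD80 and CD86 on antigen-presenting cells and strengthens the signal of the T cell receptor through phosphoinositide 3-kinase, NF-κB and calcineurin pathways. It is also needed for normal numbers of regulatory T cells, the FOXP3-positive CD4 T cells that restrain immune responses and depend on interleukin-2 signalling through STAT5. The miR-17∼92 cluster is a polycistronic transcript that yields 6 microRNAs, which rises when T cells are activated and lowers the expression of inhibitors of that activation.

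The 6 microRNAs are shown because both compared groups carry extra copies of them, so that any difference below is one between cells with the same transgene. Their mature sequences from RefSeq (GRCm38.p6, plus strand of chromosome 14) fall into 4 classes by seed, bases 2 to 8, which is in capitals.
mmu-miR-17-5p: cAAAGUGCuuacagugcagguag
mmu-miR-20a-5p: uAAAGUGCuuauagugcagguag
mmu-miR-18a-5p: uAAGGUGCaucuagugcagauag
mmu-miR-19a-3p: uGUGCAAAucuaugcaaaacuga
mmu-miR-19b-3p: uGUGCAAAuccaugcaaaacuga
mmu-miR-92a-3p: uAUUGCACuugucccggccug
The libraries do not measure mature microRNAs, but reads over the precursors were counted. Mir17, the precursor of miR-17, had 4.91, 8.54 and 7.17 CPM (counts per 1000000 counts of the library) in rescue libraries, against 5.78, 6.28, 6.29 and 7.85 CPM in T1792tg libraries. Without the transgene it lay between 0.0885 and 0.564 CPM in naive CD28ko libraries and between 0.206 and 0.441 CPM in naive wt libraries. All 7 transgenic libraries were thus far above the 8 others, while rescue and T1792tg overlapped, with a log2 fold change of 0.07 ± 0.28 (standard error, as after every log2 fold change below; edgeR adjusted p = 0.916). Mir18 had 5.10 to 8.26 CPM in rescue libraries and 5.91 to 9.09 CPM in T1792tg libraries. The host transcript Mir17hg (GRCm38.p6 chr14:115044390-115046728) had 84.3, 108 and 99.1 CPM in rescue libraries and 82.4, 106, 101 and 97.2 CPM in T1792tg libraries, and its log2 fold change was 0.01 ± 0.13 (adjusted p = 0.979). Reads over a precursor and over its host transcript cannot be fully told apart. Gt(ROSA)26Sor, the noncoding transcript of the Rosa26 locus, was below 1 CPM in all 7 libraries and did not pass the test (log2 fold change -0.53 ± 0.38, adjusted p = 0.424).

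Total counts per library were 21037540 to 22145357 in rescue cells and 20137649 to 24982429 in T1792tg cells. Cd28 itself (GRCm38.p6 chr1:60746388-60773359) had 627, 502 and 593 CPM in rescue libraries and 503, 722, 363 and 530 CPM in T1792tg libraries. Its counts overlapped between the groups and therefore do not check the CD28-/- label, which is taken as given. Reads by exon were not examined. The log2 fold change was 0.12 ± 0.15 (adjusted p = 0.700). Cd4, which encodes the coreceptor that defines these cells, averaged 1031 CPM in rescue libraries and 968 CPM in T1792tg libraries. Cd44, a marker of antigen-experienced T cells, averaged 36.3 CPM in rescue libraries and 38.8 CPM in T1792tg libraries. Read from Xist and Y-linked genes, all 3 rescue mice were female, whereas 1 of the 4 T1792tg mice (replicate 2) was female and 3 were male. Sex and genotype are therefore nearly confounded within these 7 libraries. Within them a sex effect rests on the 1 female and 3 male T1792tg libraries alone, and the sex term used below draws on the other groups of the series too.

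Of 13650 genes tested, 1077 were called in rescue against T1792tg cells at an adjusted p under 0.05 (7.89%), of which 521 were higher (3.82%) and 556 lower (4.07%). The libraries of the groups did not overlap for 850 of the 1077 called genes, against 1965 of all genes tested (14.4%). With a term for sex, 749 genes were called (5.49%), and 630 of the 1077 kept their call. The main test takes its estimate of spread from all 38 libraries. A fit of the naive libraries alone called 537 genes, one of the 7 compared libraries alone 260 genes, and one of the female libraries alone, where T1792tg is a single library, 144 genes. The count was 544 without rescue replicate 1 and 709 without rescue replicate 2. Across the 16 alternatives tried, 89 of the 1077 genes kept their call wherever they were tested, 16 of them higher and 73 lower in rescue cells. Of these 89 genes, 78 were tested in all 16. The called genes described below kept their call in every alternative that tested them unless an exception is given. Among those without an exception, Il10, Il21, Srgap3 and Myl1 were each tested in 15.

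Genes of regulatory T cells were among the lower ones. Of 21 measured regulatory T cell markers, 13 were lower and 1 was higher in rescue cells, with a median log2 fold change of -0.66 over the list, against 0.00 over all genes tested. Foxp3, the transcription factor that defines regulatory T cells, had 5.43, 6.06 and 5.46 CPM in rescue libraries, against 28.6, 32.6, 25.7 and 22.3 CPM in T1792tg libraries. Every rescue library was far below every T1792tg library, and the difference was 4.83-fold (log2 fold change -2.27 ± 0.22, adjusted p = 8.08e-09). Lrrc32, which encodes the receptor GARP that presents latent TGF-β on regulatory T cells, had 2.96, 3.24 and 4.15 CPM in rescue libraries, against 17.7, 23.5, 15.7 and 11.8 CPM in T1792tg libraries (log2 fold change -2.31 ± 0.19, adjusted p = 2.39e-10). CD25, the subunit that gives the interleukin-2 receptor its high affinity, is encoded by Il2ra, which had 8.39, 7.93 and 6.77 CPM in rescue libraries, against 19.4, 24.6, 16.5 and 18.5 CPM in T1792tg libraries (log2 fold change -1.36 ± 0.12, adjusted p = 3.17e-09). The groups did not overlap for either gene. In these bulk samples, fewer regulatory T cells and less RNA of these genes per cell cannot be told apart.

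**Figure D1:**
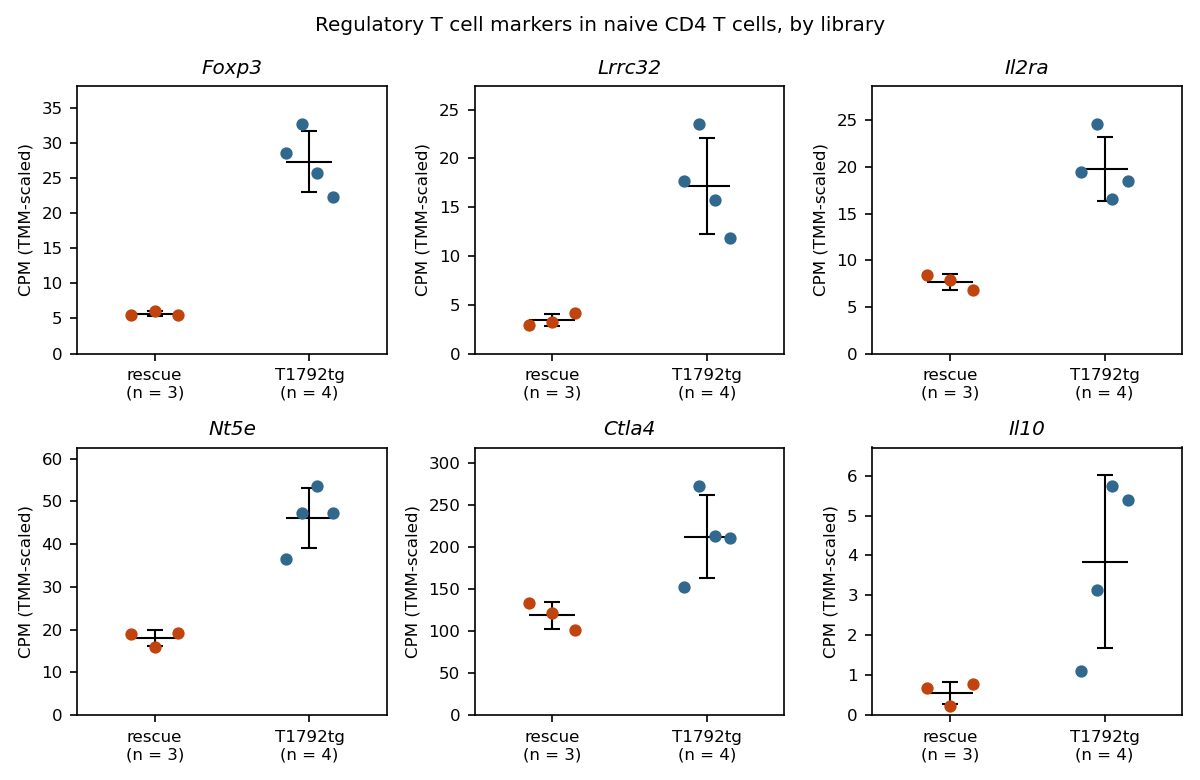
Level of 6 regulatory T cell markers in each naive library, in CPM on linear axes that start at 0, with rescue (3 libraries) left of T1792tg (4 libraries). Points are libraries, horizontal bars are means and whiskers are SD; for Foxp3, rescue libraries lie at 5.43 to 6.06 CPM and T1792tg libraries at 22.3 to 32.6 CPM, and the groups overlap in no panel.

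Other regulatory T cell genes moved the same way. Nt5e, which encodes the ectoenzyme CD73 that makes adenosine, had 18.9, 15.9 and 19.3 CPM in rescue libraries, against 36.6, 47.2, 53.6 and 47.2 CPM in T1792tg libraries (log2 fold change -1.36 ± 0.19, adjusted p = 1.10e-05). Ctla4, the inhibitory receptor that competes with CD28 for its ligands, had 133, 122 and 101 CPM in rescue libraries, against 153, 273, 213 and 210 CPM in T1792tg libraries (log2 fold change -0.84 ± 0.16, adjusted p = 0.000581). It lies close to Cd28 on chromosome 1, and T1792tg replicate 1 came nearest to the rescue libraries. Il10, an anti-inflammatory cytokine, was scarce in both groups, at 0.667, 0.235 and 0.767 CPM in rescue libraries against 1.10, 3.14, 5.75 and 5.38 CPM in T1792tg libraries (log2 fold change -2.78 ± 0.51, adjusted p = 0.000568). Klrg1, a receptor of differentiated effector and regulatory T cells, fell by 2.59 ± 0.47 on the log2 scale, a call that was lost among the female libraries alone (adjusted p = 0.0643). Tnfrsf4 (OX40), Nrp1 (neuropilin-1) and Gpr83 fell, with log2 fold changes of -0.76 ± 0.16, -0.82 ± 0.18 and -0.60 ± 0.14 and adjusted p of 0.00296, 0.00309 and 0.00464. These 3 calls were lost with the 7 compared libraries alone (adjusted p = 0.154, 0.0556 and 0.0630), and that of Gpr83 among the female libraries alone too (log2 fold change -0.58). The groups overlapped for Tnfrsf4, with T1792tg replicate 4 at 6.70 CPM and rescue replicate 3 at 7.67 CPM. They also overlapped for Nrp1, with T1792tg replicate 3 at 14.4 CPM and rescue replicate 2 at 14.9 CPM.

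Not every marker was lower. Ikzf2, which encodes Helios, had a log2 fold change of 0.28 ± 0.16 (adjusted p = 0.300), and Tnfrsf18, which encodes GITR, one of -0.28 ± 0.10 (adjusted p = 0.0877). The 1 member that was higher was Il2rb, the shared β subunit of the interleukin-2 and interleukin-15 receptors, at 145, 194 and 215 CPM in rescue libraries against 145, 151, 149 and 139 CPM in T1792tg libraries. Its log2 fold change was 0.34 ± 0.10 (adjusted p = 0.0302), but the groups overlap, with rescue replicate 1 below T1792tg replicates 2 and 3, and the adjusted p was 0.112 without rescue replicate 2, 0.187 without rescue replicate 3 and 0.0738 without T1792tg replicate 4. It was 0.149 with the sex term, 0.0607 with the naive libraries alone, 0.204 with the compared libraries alone and 0.562 among the female libraries alone. With the sex term, 13 list members were lower and 0 higher; with the 7 compared libraries alone 8 were lower, and among the female libraries alone 8.

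Several of these markers were also lower where CD28 was lost without the transgene. Foxp3 had 4.73, 5.08, 3.43 and 5.28 CPM in naive CD28ko libraries, against 23.7, 19.7, 21.5 and 21.9 CPM in naive wt libraries (log2 fold change -2.23, adjusted p = 1.09e-09). In that comparison 11 of the 21 list members were lower and 1, Ikzf2, 8.85 Mb from Cd28 on chromosome 1, was higher (log2 fold change 0.60, adjusted p = 0.00757). Klrg1 and Gpr83 were not called there (adjusted p = 0.474 and 0.0859). The difference between both Foxp3 fold changes was not called. Rescue libraries thus lay at 5.43 to 6.06 CPM, beside the 3.43 to 5.28 CPM of CD28ko libraries.

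Genes of interleukin-2 and STAT5 signalling were among the lower ones too, on a list that shares Il2ra and Il2rb with the regulatory T cell markers. Some of the lists below also share members, so their counts are not of separate genes. Of 18 list members, 8 were lower and 1 (Il2rb, above) was higher in rescue cells, with a median log2 fold change of -0.34. Socs3, a feedback inhibitor of cytokine receptors, had 180, 180 and 210 CPM in rescue libraries, against 325, 327, 363 and 347 CPM in T1792tg libraries. No library of either group came near the other, and the log2 fold change was -0.84 ± 0.15 (adjusted p = 0.000335). Cish, the feedback inhibitor CIS that STAT5 induces, had 12.3, 10.3 and 14.0 CPM in rescue libraries, against 20.8, 23.1, 31.6 and 12.8 CPM in T1792tg libraries (log2 fold change -0.85 ± 0.19, adjusted p = 0.00431). T1792tg replicate 4 overlapped the rescue libraries, and the call was lost with the 7 compared libraries alone (adjusted p = 0.103). The kinase and transcription factor genes Jak1, Stat5a and Stat5b were not called. The list count was 4 with the compared libraries alone and 3 without rescue replicate 2.

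The promoters of Socs3 and Cish are shown because both genes fell and both windows hold the STAT motif TTCNNNGAA, which is in capitals. The windows run from 250 bases before to 50 bases after the RefSeq start site (GRCm38.p6), with Socs3 on the minus strand at chr11:117969317-117969616 and Cish on the plus strand at chr9:107296409-107296708, each printed 5′ to 3′ on its own strand.
Socs3: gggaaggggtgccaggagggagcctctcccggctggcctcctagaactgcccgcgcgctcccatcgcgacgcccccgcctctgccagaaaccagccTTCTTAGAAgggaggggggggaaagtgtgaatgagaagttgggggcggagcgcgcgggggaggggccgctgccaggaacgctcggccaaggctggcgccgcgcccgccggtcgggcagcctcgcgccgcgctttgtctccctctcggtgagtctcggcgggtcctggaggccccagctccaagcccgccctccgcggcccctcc
Cish: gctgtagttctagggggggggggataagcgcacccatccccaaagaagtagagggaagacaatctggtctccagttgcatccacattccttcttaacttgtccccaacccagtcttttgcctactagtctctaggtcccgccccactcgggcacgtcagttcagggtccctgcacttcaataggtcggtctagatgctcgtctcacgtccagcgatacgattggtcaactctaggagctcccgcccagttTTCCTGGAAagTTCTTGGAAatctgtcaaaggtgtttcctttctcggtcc
Socs3 holds 1 match and Cish holds 2. The motif reads the same on both strands and occurs in 8.30% of the 32851 windows of this length in the RefSeq table. Of the 15 list genes with a window, 3 hold it, namely Cish, Gzmb and Socs3. No match was found in the window of Il2ra.

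Immediate-early and stress genes made up a further group. Of 15 measured genes of the kind that responds to signalling, heat or tissue handling, 10 were lower and 0 higher in rescue cells, with a median log2 fold change of -0.90. Zfp36, which encodes the RNA-binding protein tristetraprolin that shortens the life of cytokine mRNAs, had 406, 363 and 430 CPM in rescue libraries, against 807, 698, 671 and 715 CPM in T1792tg libraries (log2 fold change -0.85 ± 0.10, adjusted p = 2.19e-07). Fos, a subunit of the transcription factor AP-1, had 416, 323 and 393 CPM in rescue libraries, against 681, 665, 715 and 751 CPM in T1792tg libraries (log2 fold change -0.90 ± 0.17, adjusted p = 0.000732). Jun, its partner, fell, with a log2 fold change of -1.0 ± 0.15 (adjusted p = 2.38e-05), and so did Fosb (-1.09 ± 0.21, adjusted p = 0.000882). Jun lost its call among the female libraries alone (adjusted p = 0.0797). For these 4 genes every T1792tg library exceeded every rescue library.

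**Figure D2:**
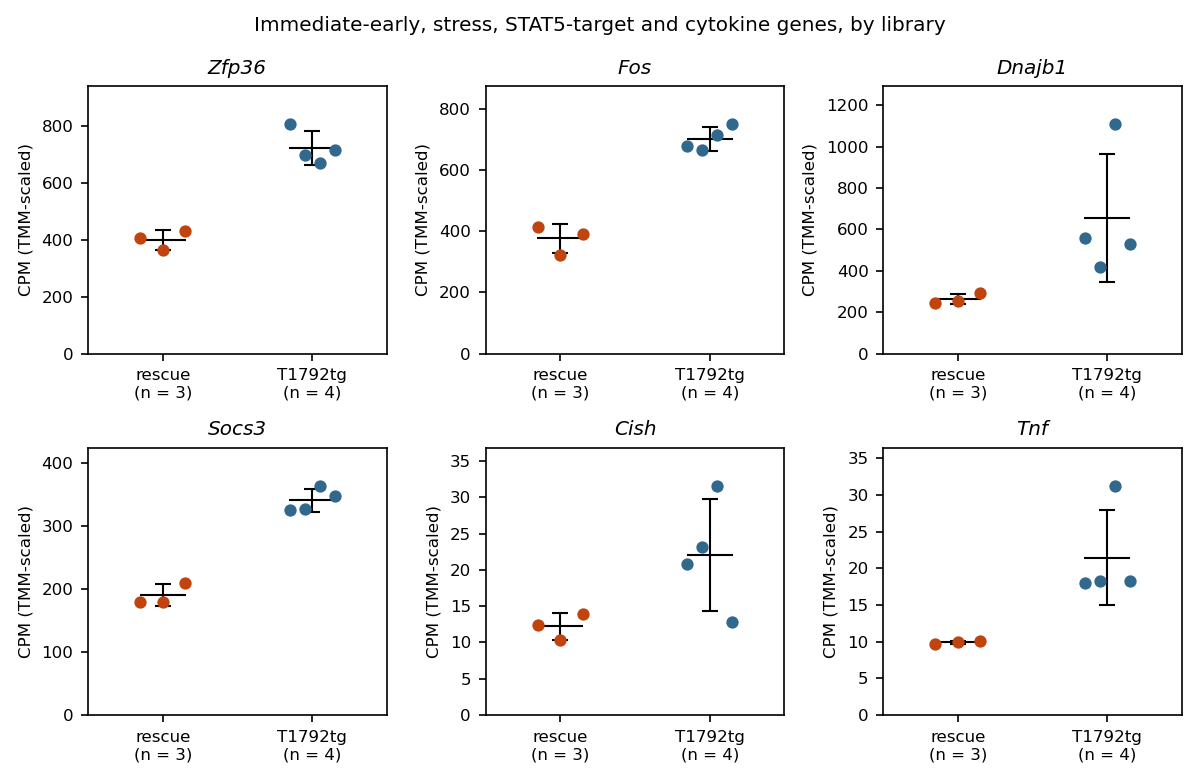
Level of 6 genes that were lower in naive rescue cells, in CPM on linear axes that start at 0, with rescue (3 libraries) left of T1792tg (4 libraries). Points are libraries, horizontal bars are means and whiskers are SD; Zfp36, Fos and Socs3 separate the groups widely, T1792tg replicate 3 stands high for Dnajb1 and Tnf, and T1792tg replicate 4 overlaps rescue for Cish.

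Heat shock genes within this group were uneven between libraries. Dnajb1, an HSP40 co-chaperone, had 245, 256 and 290 CPM in rescue libraries, against 557, 417, 1108 and 531 CPM in T1792tg libraries (log2 fold change -1.31 ± 0.23, adjusted p = 0.000358). T1792tg replicate 3 was the high library, and without it the log2 fold change was -0.91 (adjusted p = 0.00323). Hspa1a, an inducible HSP70, had 190, 207 and 414 CPM in rescue libraries, against 1325, 532, 1833 and 1079 CPM in T1792tg libraries (log2 fold change -2.14 ± 0.48, adjusted p = 0.00386). Its call was lost with the sex term (adjusted p = 0.0781), with the naive libraries alone (adjusted p = 0.0534) and among the female libraries alone (adjusted p = 0.0852), and its reads cannot be fully told from those of its near-identical neighbour Hspa1b. Hsp90aa1, an HSP90 chaperone, had 527, 569 and 474 CPM in rescue libraries, against 697, 629, 1396 and 703 CPM in T1792tg libraries (log2 fold change -0.71 ± 0.19, adjusted p = 0.0180). Without T1792tg replicate 3 its log2 fold change was -0.35 (adjusted p = 0.177), and it was also not called without rescue replicate 1 (adjusted p = 0.0654), without rescue replicate 3 (0.0591), with the sex term (0.107), with the naive libraries alone (0.0832), with the compared libraries alone (0.174) or among the female libraries alone (0.664). Summed over the list, stress genes took 5021 to 5954 CPM in rescue libraries and 8366 to 12969 CPM in T1792tg libraries. How the mice and cells were handled is not recorded per library, and the part of handling in these differences was not tested. With the sex term 7 of the 15 genes were lower, and among the female libraries alone 4 were, where the log2 fold change of Hspa1a was -0.98.

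The promoter of Hspa1a is shown as the strongest member of this group by fold. Its window (chr17:34972107-34972406, minus strand, GRCm38.p6) holds 1 match to the heat shock motif GAANNTTC, in capitals, which occurs in 7.86% of all 32851 windows and in those of 3 of the 12 list genes with a window (Hspa1a, Hspa1b and Jun).
Hspa1a: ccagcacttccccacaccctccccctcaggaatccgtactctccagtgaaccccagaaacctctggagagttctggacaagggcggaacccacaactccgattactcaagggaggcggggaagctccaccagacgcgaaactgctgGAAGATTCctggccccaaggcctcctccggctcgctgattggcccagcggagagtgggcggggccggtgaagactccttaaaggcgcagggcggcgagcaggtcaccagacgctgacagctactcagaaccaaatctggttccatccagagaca

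Markers of tonic T cell receptor signalling changed in both directions, with 4 of 20 lower, 3 higher and a median log2 fold change of -0.12. The lower count was 2 without rescue replicate 1 or rescue replicate 2, and the higher count was 1 without rescue replicate 1 or T1792tg replicate 4. Nr4a1, an orphan nuclear receptor used as a readout of receptor signal strength, had 699, 635 and 801 CPM in rescue libraries, against 1095, 996, 1108 and 821 CPM in T1792tg libraries (log2 fold change -0.50 ± 0.11, adjusted p = 0.00276). The groups did not overlap, but the call was lost with the 7 compared libraries alone (adjusted p = 0.0655). Cd200 (lower) and Spry2 (higher), described below, were the list members that kept their call in every alternative. Rgs16 and Rhob were not on this list. Rgs16, a brake on G protein signalling, had 4.72, 7.93 and 6.77 CPM in rescue libraries, against 22.3, 21.9, 33.5 and 21.0 CPM in T1792tg libraries (log2 fold change -1.93 ± 0.18, adjusted p = 3.51e-09). Rhob, a small GTPase of endosomes, had 41.4, 32.3 and 49.3 CPM in rescue libraries, against 151, 111, 133 and 99.1 CPM in T1792tg libraries (log2 fold change -1.59 ± 0.13, adjusted p = 2.39e-10). Myc, the growth-promoting transcription factor, had a log2 fold change of -0.43 ± 0.10 (adjusted p = 0.00426), but it was not called without rescue replicate 1 (adjusted p = 0.0603), with the compared libraries alone (adjusted p = 0.0924) or among the female libraries alone (adjusted p = 0.343). Of 20 activation transcription factors, 5 were lower and 1, Egr3, was higher (log2 fold change 0.41 ± 0.13, adjusted p = 0.0481). The Egr3 call was lost without rescue replicate 1 (adjusted p = 0.104), rescue replicate 3 (0.279), T1792tg replicate 2 (0.0788), T1792tg replicate 3 (0.128) or T1792tg replicate 4 (0.0798), and in the fits with the sex term or of fewer groups (adjusted p = 0.0801 to 0.314). For the list, the count was 2 lower and 0 higher without rescue replicate 1, and 3 lower and 3 higher without rescue replicate 2.

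NF-κB genes gave a smaller group, with 5 of 20 lower and 0 higher. Nfkbiz, which encodes the nuclear cofactor IκBζ, had 182, 151 and 187 CPM in rescue libraries, against 228, 273, 277 and 236 CPM in T1792tg libraries (log2 fold change -0.55 ± 0.12, adjusted p = 0.00335). Nfkbia, which encodes the inhibitor IκBα, had 411, 414 and 364 CPM in rescue libraries, against 520, 481, 507 and 489 CPM in T1792tg libraries (log2 fold change -0.33 ± 0.07, adjusted p = 0.00190), and its call was lost with the compared libraries alone (adjusted p = 0.103) and among the female libraries alone (adjusted p = 0.206). The list count was 2 without rescue replicate 1, 2 without rescue replicate 2 and 3 without T1792tg replicate 3. The adaptors and kinases that act directly below CD28 gave 0 called genes of 18 in edgeR, and the genes of cholesterol synthesis 0 of 19. The share over all genes tested was 7.89%, at which lists this short hold few called genes, so these counts do not show that the genes were unchanged.

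Cytokine genes and TNF receptor genes changed in both directions. Of 22 cytokine and chemokine genes, 6 were lower and 2 higher in rescue cells; 1 was higher without rescue replicate 2 or T1792tg replicate 1. Of 17 genes of the TNF receptor superfamily and its ligands, 2 were lower and 4 higher, with a median log2 fold change of 0.11, and only 1 or 2 were higher without any 1 of the libraries other than T1792tg replicate 2. Tnf had 9.63, 9.91 and 10.2 CPM in rescue libraries, against 18.0, 18.3, 31.3 and 18.3 CPM in T1792tg libraries (log2 fold change -1.12 ± 0.19, adjusted p = 0.000231). T1792tg replicate 3 was again high, and without it the log2 fold change was -0.86 (adjusted p = 0.00243). Lta, which encodes lymphotoxin α, had 10.8, 11.7 and 11.6 CPM in rescue libraries, against 19, 17.0, 23.9 and 15.8 CPM in T1792tg libraries (log2 fold change -0.74 ± 0.15, adjusted p = 0.00143). Tnfrsf25, the death receptor DR3 that costimulates T cells, had 32.6, 38.1 and 34.9 CPM in rescue libraries, against 52.8, 58.4, 58.2 and 52.7 CPM in T1792tg libraries (log2 fold change -0.66 ± 0.11, adjusted p = 0.000116). Tnfsf11, which encodes RANKL, went the other way, with 21.1, 18.0 and 14.5 CPM in rescue libraries against 7.08, 10.9, 7.87 and 4.31 CPM in T1792tg libraries (log2 fold change 1.25 ± 0.25, adjusted p = 0.00172); this call was lost among the female libraries alone (adjusted p = 0.331).

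Of 15 follicular helper genes, 6 were lower and 0 higher, but the count was 2 without rescue replicate 1 and 3 without rescue replicate 2. Il21, the cytokine by which these cells help B cells, was near 0 in rescue libraries at 0.191, 0.469 and 0.361 CPM, against 1.20, 2.23, 2.08 and 2.11 CPM in T1792tg libraries (log2 fold change -2.47 ± 0.36, adjusted p = 2.53e-05). Cd200, a ligand for an inhibitory receptor on myeloid cells, had 14.1, 13.6 and 13.2 CPM in rescue libraries, against 21.4, 22.9, 19.2 and 24.3 CPM in T1792tg libraries (log2 fold change -0.69 ± 0.11, adjusted p = 9.27e-05). Of 18 genes on a separate list of T helper lineages, 2 were lower (11.1%) and 0 higher. That count was 1 without rescue replicate 1, 4 without rescue replicate 3 or T1792tg replicate 2, and 5 by DESeq2. Ccr8, a member of that list and a chemokine receptor of regulatory and type 2 helper T cells, had 8.72, 13.5 and 9.07 CPM in rescue libraries, against 32.1, 28.3, 18.6 and 14.7 CPM in T1792tg libraries (log2 fold change -1.17 ± 0.23, adjusted p = 0.00118).

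Among the genes that were higher in rescue cells, a set of killer cell lectin-like receptors stood out by fold. Of 23 such genes tested on chromosome 6 between 128.6 and 131.2 Mb (GRCm38.p6), a region examined after the values were seen, 6 were higher and 2 lower. Without the transgene, 7 of the 23 were higher and 1 lower in naive CD28ko over naive wt cells. Klra1, which encodes the receptor Ly49A for MHC class I, had 6.43, 17.6 and 10.2 CPM in rescue libraries, against 1.30, 1.86, 2.50 and 1.67 CPM in T1792tg libraries (log2 fold change 2.63 ± 0.35, adjusted p = 3.43e-06). Klrb1a, of the NKR-P1 receptors, had 7.44, 13.6 and 9.11 CPM in rescue libraries, against 1.99, 1.69, 3.08 and 1.83 CPM in T1792tg libraries (log2 fold change 2.22 ± 0.31, adjusted p = 1.37e-05). Klrd1, which encodes CD94, had 33.8, 38.1 and 35.2 CPM in rescue libraries, against 14.4, 21.0, 26 and 19.6 CPM in T1792tg libraries (log2 fold change 0.81 ± 0.15, adjusted p = 0.000438). Rescue replicate 2 was the highest library for all 3 genes, and no T1792tg library reached a rescue library. Klra6 and Klra7 rose by 1.76 ± 0.39 and 1.63 ± 0.33, of which Klra6 lost its call with the sex term (adjusted p = 0.0656) and Klra7 with the compared libraries alone (adjusted p = 0.0556); among the female libraries alone neither was called (adjusted p = 0.256 and 0.336). The Klra genes are close copies of one another, so their counts are uncertain where reads could be shared. Of 12 NK and CD8 markers, 1 (Klrd1) was higher and 2 were lower in rescue cells (25% called, against 7.89% of all genes tested). The lower count was 0 without rescue replicate 2 and 3 without rescue replicate 3. Klrb1c, the NK1.1 gene on that list, averaged 6.27 CPM in rescue and 9.07 CPM in T1792tg libraries (adjusted p = 0.285). Ncr1, which encodes NKp46, fell by 1.34 ± 0.39 (adjusted p = 0.0311). The Ncr1 call was lost without rescue replicate 1 (adjusted p = 0.127), rescue replicate 2 (0.168) or T1792tg replicate 3 (0.149). It was also lost with the sex term (0.0815), the naive libraries alone (0.0675) and the compared libraries alone (0.144). Among the female libraries alone it was lost too, with a log2 fold change of -0.97. The part of NK cells in these differences was not tested.

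**Figure D3:**
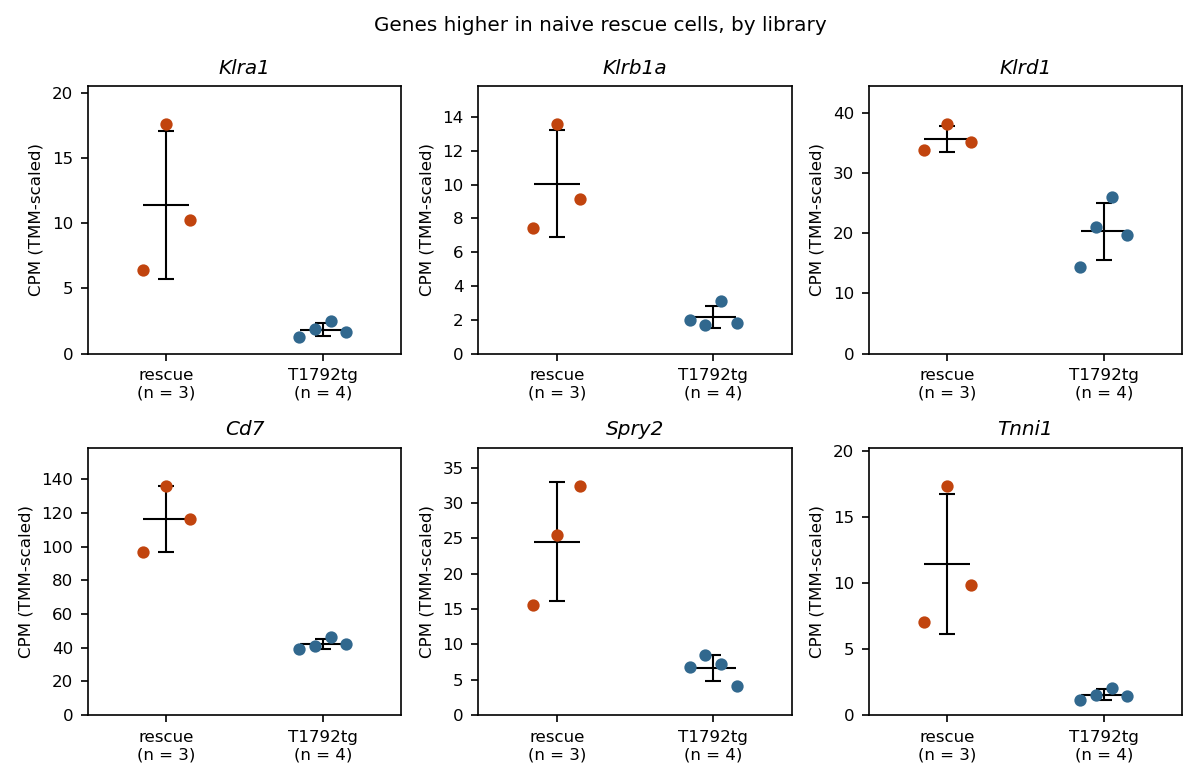
Level of 6 genes that were higher in naive rescue cells, in CPM on linear axes that start at 0, with rescue (3 libraries) left of T1792tg (4 libraries). Points are libraries, horizontal bars are means and whiskers are SD; every rescue library lies above every T1792tg library in each panel, and rescue replicate 2 is the highest for Klra1, Klrb1a, Klrd1, Cd7 and Tnni1.

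Other increases concerned signalling and cytoskeletal genes. Cd7, an immunoglobulin family receptor of T and NK cells, had 96.9, 136 and 116 CPM in rescue libraries, against 39.1, 40.9, 46.3 and 42.1 CPM in T1792tg libraries (log2 fold change 1.47 ± 0.14, adjusted p = 1.03e-08). Spry2, a feedback inhibitor of the RAS and ERK pathway, had 15.6, 25.4 and 32.4 CPM in rescue libraries, against 6.73, 8.51, 7.16 and 4.07 CPM in T1792tg libraries (log2 fold change 1.89 ± 0.23, adjusted p = 1.23e-06). Srgap3, a GTPase-activating protein for Rac, had 5.67, 7.46 and 10.1 CPM in rescue libraries, against 2.04, 2.07, 2.75 and 1.87 CPM in T1792tg libraries (log2 fold change 1.82 ± 0.23, adjusted p = 1.51e-06). Igf2bp3, an RNA-binding protein of fetal-type lymphocytes, had 12.2, 24.1 and 18.4 CPM in rescue libraries, against 5.78, 8.31, 2.75 and 6.70 CPM in T1792tg libraries (log2 fold change 1.63 ± 0.31, adjusted p = 0.000798). Tnni1, a troponin gene of slow muscle on chromosome 1, had 7.05, 17.4 and 9.88 CPM in rescue libraries, against 1.15, 1.53, 2.08 and 1.44 CPM in T1792tg libraries (log2 fold change 2.87 ± 0.30, adjusted p = 5.51e-08). Each of these 5 genes separated the groups without overlap.

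RNA of other blood cells was unequal between the groups. Transcripts of neutrophil granules were lower in rescue libraries: Ltf had 0.191, 0.751 and 0.361 CPM in rescue libraries, against 5.53, 5.99, 8.87 and 4.19 CPM in T1792tg libraries (log2 fold change -3.81 ± 0.72, adjusted p = 0.000798). Ngp and Mpo, likewise of neutrophils and their precursors, fell, with log2 fold changes of -3.58 ± 0.70 and -3.07 ± 0.63 (adjusted p = 0.00104 and 0.00186), and these 3 calls were lost among the female libraries alone. Jchain, of plasma cells, had 11.9, 7.51 and 17.9 CPM in rescue libraries, against 34.5, 57.8, 71.2 and 86.6 CPM in T1792tg libraries (log2 fold change -2.33 ± 0.39, adjusted p = 0.000145). Over the whole lists, 3 of 17 myeloid markers were lower and 0 higher, with a summed level of 240 to 257 CPM in rescue and 258 to 348 CPM in T1792tg libraries. The myeloid count was 0 without rescue replicate 1, 5 without rescue replicate 3 or T1792tg replicate 4, 7 with the sex term and 1 with the naive libraries alone. The B cell list gave 0 called of 14 in edgeR, with a median log2 fold change of -0.64 and a summed level of 728 to 1283 CPM in rescue and 1139 to 1705 CPM in T1792tg libraries. Of 6 plasma cell markers, 2 were lower and 0 higher, and 1 was lower without rescue replicate 2 or rescue replicate 3. Their summed level was 139 to 163 CPM in rescue and 162 to 243 CPM in T1792tg libraries. Red cell and platelet markers went the other way, with 1 of 6 higher and 0 lower, but 0 higher without rescue replicate 1 or rescue replicate 2. Their summed level was 49.5 to 833 CPM in rescue and 106 to 494 CPM in T1792tg libraries. No defining marker of these lists was at 0. The part of other cells in the differences above was not tested.

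The chromosome that carries the engineered gene was examined by distance from Cd28, as a description without a test. On chromosome 1, 91 of 799 tested genes were called (11.4%), against 7.65% on all other chromosomes; within 5 Mb of Cd28 the count was 6 of 56, from 5 to 10 Mb it was 8 of 40, from 10 to 20 Mb it was 12 of 78, and from 20 to 40 Mb it was 26 of 179. The share was 10.7% within 5 Mb, 20% from 5 to 10 Mb, 15.4% from 10 to 20 Mb and 14.5% from 20 to 40 Mb. Farther out it was 8.12% from 40 to 80 Mb and 9.09% from 80 to 200 Mb. Acadl, which encodes long-chain acyl-CoA dehydrogenase of fatty acid oxidation, lies 6.09 Mb from Cd28 (GRCm38.p6 chr1:66830839-66863309) and had 11.8, 14.7 and 16.3 CPM in rescue libraries, against 51.8, 49.1, 49.1 and 48.4 CPM in T1792tg libraries. It had the smallest adjusted p of all genes tested (4.62e-12, log2 fold change -1.79 ± 0.12). Its neighbour Myl1, a myosin light chain of fast muscle at 6.18 Mb, had 2.19, 5.30 and 3.97 CPM in rescue libraries, against 0.299, 0.0413, 0.333 and 0.120 CPM in T1792tg libraries (log2 fold change 4.26 ± 0.51, adjusted p = 9.84e-07). Lancl1, which encodes a glutathione-binding protein, had 28.9, 35.5 and 30.2 CPM in rescue libraries, against 43.2, 47.6, 47.6 and 44.4 CPM in T1792tg libraries (log2 fold change -0.54 ± 0.08, adjusted p = 5.14e-05). All 3 differed in the same direction between naive CD28ko and naive wt cells (log2 fold changes -2.04, 4.52 and -0.65; adjusted p = 8.67e-15, 3.91e-07 and 3.70e-07). Loss of CD28 and other alleles carried on the same chromosome segment cannot be told apart with these groups.

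The question whether CD28 loss acts differently in cells with the transgene was addressed by comparing rescue over T1792tg with CD28ko over wt, which share no library. Between naive CD28ko and naive wt cells 2015 genes were called (14.8%), 1013 higher (7.42%) and 1002 lower (7.34%). Of the 521 genes higher in rescue cells, 226 were also called higher in CD28ko cells, which is 43.4% of the rescue genes and 22.3% of the CD28ko genes, and 3 were called lower. Of the 556 lower genes, 277 were also called lower in CD28ko cells (49.8% and 27.6% of the lists) and 0 higher. Over all genes tested, 67.7% had the same sign, and Pearson's r across genes was 0.607, a description over genes that are not independent. Both contrasts also set a group of females alone against a group with males, of which wt has 1.

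**Figure D4:**
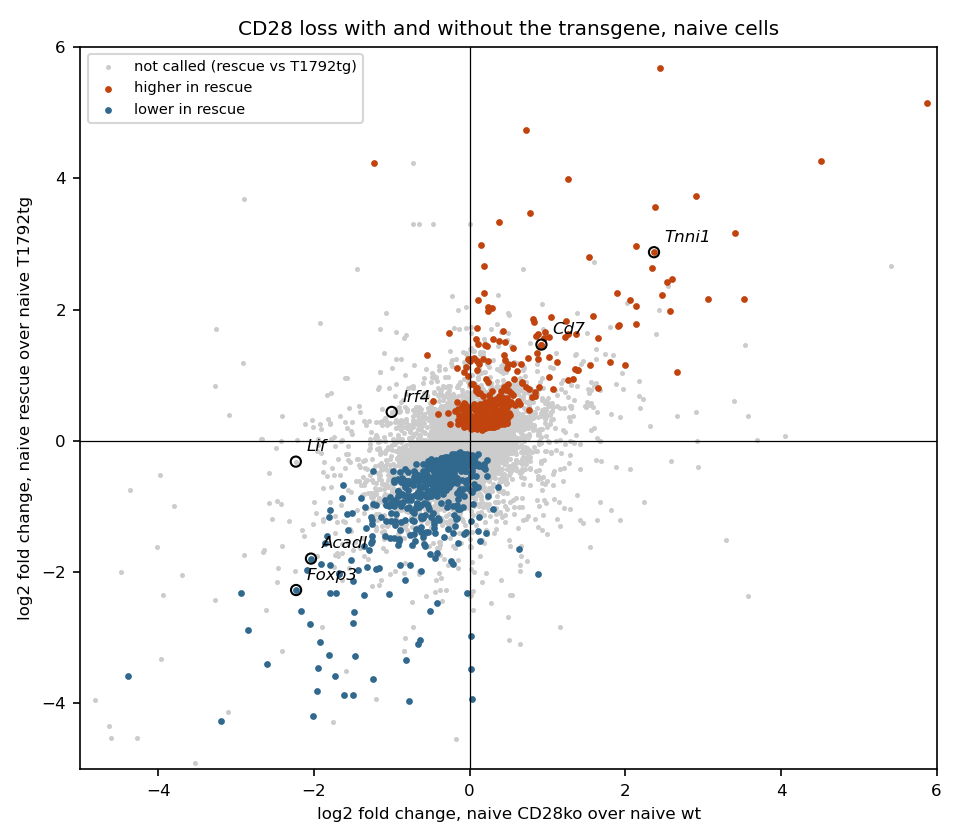
Log2 fold change of naive rescue over T1792tg cells (vertical) against that of naive CD28ko over wt cells (horizontal), 1 point per gene; genes called higher in rescue cells are red, genes called lower are blue and others grey, and 20 genes lie beyond the axes. Called genes lie mostly at the lower left and upper right, where the signs match, while Irf4 and Lif lie to the left of 0 but near the horizontal line.

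The test of the difference itself called 2 genes (0.0147%), and 1405 had an unadjusted p under 0.05. The count was 48 by DESeq2, 51 without rescue replicate 2, 77 without T1792tg replicate 1, 22 without wt replicate 4, 8 without CD28ko replicate 1 and 7 without T1792tg replicate 2. Irf4, a transcription factor whose level follows T cell receptor signal strength, had 212, 150 and 212 CPM in rescue libraries, against 115, 156, 178 and 115 CPM in T1792tg libraries. In the groups without the transgene it had 139, 173, 194 and 139 CPM in CD28ko libraries, against 267, 463, 325 and 236 CPM in wt libraries. The log2 fold change was 0.44 ± 0.17 with the transgene (adjusted p = 0.0977, and 0.0344 without T1792tg replicate 3) and -1.0 ± 0.16 without it (adjusted p = 4.22e-05), and the difference between them was 1.44 ± 0.23 (adjusted p = 0.00197). Lif, which encodes leukemia inhibitory factor, had 5.67, 4.51 and 6.86 CPM in rescue libraries and 5.19, 7.44, 9.37 and 6.22 CPM in T1792tg libraries, against 2.03, 2.03, 2.26 and 1.54 CPM in CD28ko libraries and 7.64, 12.7, 9.04 and 7.68 CPM in wt libraries. The difference between its fold changes was 1.92 ± 0.28 (adjusted p = 0.000850). Both calls held with the sex term (adjusted p = 0.00601 and 0.00258) and without each library in turn, but neither held in the fit of the compared groups alone (adjusted p = 0.259 and 0.116) or among the female libraries alone (adjusted p = 0.177 and 0.0722), and Irf4 was not called with the naive libraries alone (adjusted p = 0.179). For the other genes edgeR called no difference between the contrasts, which does not show that they act alike.

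Interferon-stimulated genes gave unequal counts. Of 27 list members, 2 were higher and 1 was lower in rescue cells, against 18 higher and 0 lower in CD28ko cells, while 0 of the 27 were called by edgeR's test of the difference. With the sex term 6 were higher and 0 lower in rescue cells, and without T1792tg replicate 1 the counts were 4 and 0; without rescue replicate 1 or T1792tg replicates 2, 3 or 4, 1 was higher. The median log2 fold change was 0.25 for rescue over T1792tg and 0.80 for CD28ko over wt. Ifi27l2a, an interferon-induced mitochondrial protein gene, was higher in rescue cells, at 594, 507 and 381 CPM against 365, 281, 299 and 305 CPM in T1792tg libraries (log2 fold change 0.66 ± 0.14, adjusted p = 0.00197). The list of published miR-17∼92 targets gave 3 higher and 3 lower of 29, but 0 and 1 without rescue replicate 2 and 1 and 1 without T1792tg replicate 1; 1 was higher without rescue replicate 1 or T1792tg replicate 4.

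After 24 h of stimulation the same genotypes differed at more genes, with 4426 called (32.4%), 2262 higher (16.6%) and 2164 lower (15.9%). Of the 521 genes higher in naive rescue cells, 114 were called higher and 83 lower at 24 h; of the 556 lower ones, 141 were called lower and 99 higher. The test of the difference between the 24 h and the naive contrast called 3164 genes (23.2%). Il2ra, lower in naive rescue cells, did not pass the test at 24 h (adjusted p = 1; adjusted p of the change = 1.21e-07), and Lrrc32 had a log2 fold change of 0.14 there (adjusted p = 0.572; adjusted p of the change = 6.97e-09). Foxp3 was still lower at 24 h, by 0.79 (adjusted p = 0.00627), a smaller difference than in naive cells (adjusted p of the change = 0.000486). Nt5e, lower in naive rescue cells, was higher in rescue cells at 24 h (log2 fold change 2.03, adjusted p = 6.41e-10), and so were Zfp36 (0.38, adjusted p = 0.00251), Nr4a1 (1.0, adjusted p = 3.46e-09), Lancl1 (0.69, adjusted p = 3.23e-08) and Tsc22d3, a glucocorticoid-induced regulator (0.80, adjusted p = 0.00104).

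**Figure D5:**
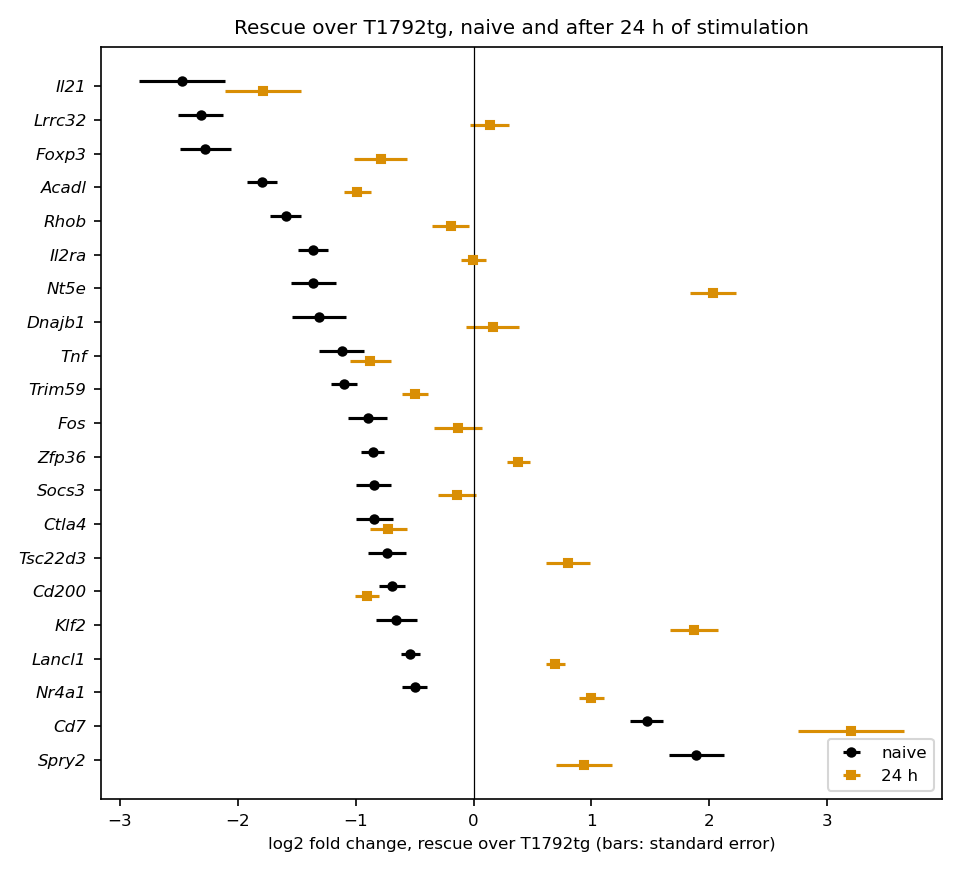
Log2 fold change of rescue over T1792tg cells for 21 genes, naive (black circles) and after 24 h of stimulation (orange squares), with standard errors as bars; values below 0 are lower in rescue cells. Tnf, Ctla4, Cd200 and Il21 lie on the same side at both times, Il2ra and Lrrc32 lie near 0 at 24 h, and Nt5e changes sides.

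Some differences kept their direction over time. Ctla4 was lower in rescue cells, with log2 fold changes of -0.84 in naive cells and -0.72 at 24 h (adjusted p at 24 h = 0.000424); those of Tnf were -1.12 and -0.87 (0.000196), those of Cd200 -0.69 and -0.90 (8.49e-09) and those of Il21 -2.47 and -1.79 (4.39e-05). For these 4 genes the change between times was not called. Cd7 was higher by 1.47 in naive cells and by 3.20 at 24 h (adjusted p of the change = 0.0110). Spry2 was higher by 1.89 in naive cells and by 0.94 at 24 h (adjusted p of the change = 0.0368). Whether the naive and 24 h libraries of a number came from the same mouse is not given in the labels. The sex read for T1792tg libraries matched by number in both states, with replicate 2 female and replicates 1, 3 and 4 male. All rescue libraries were female, so sex cannot tell their numbers apart. The tests above did not treat the libraries as pairs.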

How the data were processed

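Naive and 24 h stimulated CD4 T cells were profiled by stranded mRNA sequencing with single-end reads of 76 bases, per the labels. The deposited values are raw counts per gene for 38 libraries, 1 table for the series. The submitters' processing notes name mm10 together with STAR (2.5.2a), FastQC (0.11.5), edgeR and R. For the counting tool, its strand setting and its annotation, nothing is stated. Of 24028 gene IDs, 23968 matched RefSeq (GRCm38.p6), and unmatched IDs held 0.0749% of counts.

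Counts as deposited were tested with edgeR 4.0.16 (R 4.3.3; quasi-likelihood F test, TMM, filterByExpr) in 1 fit of 10 groups, without covariates, on 13650 genes, with Benjamini-Hochberg adjustment; called means an adjusted p under 0.05. CPM values are scaled by TMM, except summed list levels, which are raw CPM. Promoter and microRNA sequences are those of RefSeq. Alternatives were RLE size factors, DESeq2 1.42.0, no filter, a mean of at least 5 CPM, fewer groups in the fit, a replicate block, sex (as a term, or females alone) and leaving out each library.

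The comparison, the 34 gene lists and the members named were chosen with earlier results of these data known; 1 gene was removed from a list after the files were seen because its symbol is ambiguous. Genes named by rule were the engineered loci, the 10 largest increases and decreases and the 10 smallest p among called genes without overlap and with at least 5 CPM, up to 4 members per list, the top interaction genes and called genes within 10 Mb of Cd28; not all are printed, and Cd4, Cd44, other list members and the genes of the closing section were chosen after their values were seen. Each library is 1 mouse, and the labels give no batch. Intervals are standard errors of the fit.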

Additional observations from a re-analysis of the deposited data

Results flagged for a closer look

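Of 83 groups of 4 libraries examined, 7 had 1 library apart from the others. In these 7 genes 1 naive T1792tg library stood apart from the 3 others of its group. T1792tg replicate 3 was high for Hsp90aa1 at 1396 CPM (others 629 to 703 CPM), for Tnf at 31.3 CPM (others 18.0 to 18.3 CPM), for Rgs16 at 33.5 CPM (others 21.0 to 22.3 CPM) and for Ncr1 at 4.87 CPM (others 2.11 to 2.44 CPM). The same library was low for Nrp1 at 14.4 CPM (others 23.6 to 25.4 CPM). T1792tg replicate 1 was low for Il21 at 1.20 CPM (others 2.08 to 2.23 CPM), and T1792tg replicate 4 was high for Mthfd2 at 62.1 CPM (others 51.1 to 52.9 CPM). Chance sets apart about 1 in 20 groups, and these groups share libraries.

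The rescue over T1792tg difference changed between naive and 24 h cells by an interaction test in 17 of the 21 genes plotted. Over all 13650 genes tested the same test called 3164 (23.2%). The plotted genes were chosen with results of these data known, and the naive libraries enter both the choice and the test. The count of 17 therefore does not stand for genes at large. The log2 fold change at 24 h minus that in naive cells was 1.49 for Foxp3, 2.45 for Lrrc32, 1.36 for Il2ra, 3.39 for Nt5e and 0.70 for Socs3. It was 1.23 for Zfp36, 0.77 for Fos, 1.47 for Dnajb1 and 1.5 for Nr4a1. It was 1.73 for Cd7, -0.96 for Spry2, 0.81 for Acadl, 1.40 for Rhob, 0.60 for Trim59, 1.23 for Lancl1 and 1.53 for Tsc22d3. It was 2.52 for Klf2, whose naive call was lost with the sex term (adjusted p = 0.0746), among the female libraries alone (adjusted p = 0.185) and without rescue replicate 2 (adjusted p = 0.114). Between naive contrasts, rescue over T1792tg minus CD28ko over wt was 1.44 for Irf4 and 1.92 for Lif.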

How the results depend on the processing

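The rescue over T1792tg count of 1077 genes was 144 among the female libraries alone, 260 with the compared groups alone, 537 with the naive libraries alone, and 544 to 1338 when 1 library was left out. The difference from CD28ko over wt called 2 genes, but 0 in the compared groups alone (edgeR), 9 at a mean of at least 5 CPM, 48 by DESeq2 and 2 to 77 when 1 library was left out. CD28ko over wt gave 956 genes with the compared groups alone, 1121 with the naive libraries alone and 1170 to 2188 when 1 library was left out, the lowest without CD28ko replicate 4. Among the female libraries alone, the 24 h contrast gave 2404 genes and its difference from the naive one 1067. The cause of these shifts was not tested; fits of fewer groups hold fewer samples. Deviations of same-numbered naive rescue and T1792tg libraries correlated at -0.0527, -0.158 and -0.0958, so these were not treated as pairs. Same-numbered naive and 24 h libraries of a genotype correlated at 0.0297 to 0.171 in rescue and 0.0172 to 0.136 in T1792tg cells, not above 0.1 in every pair. With the replicate block the counts were 1055 for rescue over T1792tg, 4 for the difference from CD28ko over wt and, with the block within genotype, 2985 for the 24 h difference. No called gene among those named changed sign under any alternative run; of the genes not called, Cd28, Mir17, Mir17hg, Mir18 and Jak1, all near 0, did. Genes under about 1 CPM rest on few counts.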

Other observations

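A few further genes, chosen after their values were seen, kept their calls in all alternatives run. Ppp1r15a, which encodes the stress-induced phosphatase subunit GADD34, had 670, 528 and 670 CPM in rescue libraries, against 1174, 1004, 1243 and 1032 CPM in T1792tg libraries (log2 fold change -0.84 ± 0.09, edgeR adjusted p = 2.36e-07). Ptger4, the prostaglandin E2 receptor EP4, had 31.4, 30.5 and 37.8 CPM in rescue libraries, against 60.0, 64.5, 54.2 and 54.6 CPM in T1792tg libraries (log2 fold change -0.81 ± 0.09, edgeR adjusted p = 2.49e-07). Padi2, which encodes a peptidylarginine deiminase, was higher, with 79.7, 60.6 and 78.1 CPM in rescue libraries against 46.7, 44.2, 42.7 and 41.3 CPM in T1792tg libraries (log2 fold change 0.74 ± 0.08, edgeR adjusted p = 2.84e-07). Mthfd2, a mitochondrial enzyme of one-carbon metabolism, had 34.2, 35.4 and 39.1 CPM in rescue libraries, against 51.1, 52.9, 51.6 and 62.1 CPM in T1792tg libraries (log2 fold change -0.59 ± 0.08, edgeR adjusted p = 2.86e-06). Of 20 genes of amino acid and one-carbon metabolism, 4 were lower and 0 higher; the count was 2 without rescue replicate 1 or rescue replicate 2, 2 with the naive libraries alone, and 1 with the compared libraries alone or among the female libraries alone. For the 4 genes with values above, no library of one group reached the other.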
